A study of Mus musculus with 14 samples.

Results

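The genes described here are Kmt2a, Men1, Psip1, Dot1l, Mllt1, Mllt3, Mllt10, Aff1, Aff4 and Cdk9, which encode MLL, its chromatin tethers and the partner, elongation and DOT1L complex proteins that MLL fusions draw on. They were chosen by gene symbol and not by a measured value, although earlier results of these data were known at the time. All 10 are among the 22155 genes of the count table and among the 11169 genes with enough counts to be tested. Messenger RNA of MLL-AF9-Cas9+ cells was sequenced, in 3 libraries after transduction with sgSgf29 and in 3 after transduction with sgCtrl. These are mouse leukemia cells made by retroviral expression of the MLL-AF9 fusion in lineage-negative bone marrow cells, harvested as blasts from diseased mice, cultured with SCF, IL-3 and IL-6, and equipped with Cas9. Both groups carry the fusion, Cas9 and the ipUSEPR lentiviral vector, and both were kept in puromycin at 2 μg/ml for 3 days, so that they differ in the single guide RNA (sgRNA) alone, which targets Sgf29 in one group and nonessential sequences in the other. The transduced cells were selected as populations with puromycin. The sources do not say whether the 3 libraries of a group came from separate cultures or from different sgRNA sequences, and the p-values therefore cover only the spread between these libraries, which may be technical.

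MLL is a histone H3 lysine 4 methyltransferase that keeps Hox genes active in blood progenitors. In MLL leukemia its N-terminal part, which binds menin and through it LEDGF (the product of Psip1), is joined to a partner that works in transcriptional elongation. AF9 (Mllt3) and its paralog ENL (Mllt1) recruit the AFF scaffolds with CDK9 of P-TEFb, which releases paused RNA polymerase II, and, in separate complexes, AF10 (Mllt10) with DOT1L, the histone H3 lysine 79 methyltransferase. SGF29, the product of the targeted gene, reads methylated lysine 4 of histone H3 in the SAGA and ATAC acetyltransferase complexes.

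Reads assigned to genes numbered 16003990 to 21786618 per library, of which the 10 genes together took 8844 to 13869. Sgf29 mRNA was lower in the sgSgf29 libraries, at 14.5 ± 2.59 CPM (gene counts scaled to a common library total with edgeR's TMM factors) against 39.0 ± 2.47 CPM in the sgCtrl libraries (SD, n = 3 each). The myeloid genes Ptprc, Spi1 and Elane were well expressed in both groups, whereas Cd34 had 0 counts in all 6 libraries. Of the 8 tested genes of their list, Mpo, Elane and Kit were called lower in the sgSgf29 libraries. Ptprc, Spi1 and Itgam were called higher, and Cebpa and Csf1r did not pass. These are 37.5% lower and 37.5% higher, against 34.4% and 35.4% of all genes tested. Mature myeloid markers were called higher in 10 cases and lower in 1 in the sgSgf29 libraries, and their summed level was 23176 to 24924 CPM in the sgSgf29 libraries against 7996 to 8469 CPM in the sgCtrl libraries, with Mrc1 at 0 counts throughout. Most of that sum came from S100a8 and S100a9, chosen after their values were seen. Their means were 7967 and 13074 CPM in the sgSgf29 libraries against 2779 and 3447 CPM in the sgCtrl libraries. Ribosomal protein genes took 12.2% to 13.8% of the gene counts in the sgSgf29 libraries against 19.1% to 19.8% in the sgCtrl libraries. The part of these shifts in the changes described here was not tested. In these bulk libraries, fewer cells of a type and less RNA per cell cannot be told apart. Markers of erythroid, megakaryocytic, mast, B, T and NK cells and fibroblasts summed to 9.99 CPM or less per list in every library.

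At an adjusted p under 0.05 from edgeR, 3 of the 10 genes were higher in the sgSgf29 cells, namely Aff4, Men1 and Aff1, and 2 were lower, namely Dot1l and Mllt10. Kmt2a, Psip1, Mllt1, Mllt3 and Cdk9 did not pass. Over all genes tested, 35.4% were called higher and 34.4% lower, 69.8% in either direction, so the 5 calls among 10 genes lay below the share over all genes. With scaling by library size alone, the calls over all genes were 2385 lower and 5575 higher, against 3842 lower and 3957 higher with TMM. The libraries of the groups did not overlap for 5 of the 10 genes, against 72.1% of all genes tested. The median log2 fold change was 0.06 for the 10 genes and 0.01 for all genes tested, and single genes ranged from -0.35 to 0.90. The summed level of the 10 genes was 621 ± 8.95 CPM in the sgSgf29 libraries and 598.1 ± 19.9 CPM in the sgCtrl libraries (SD, n = 3 each), and the groups overlapped. That overlap depends on the TMM scaling. As a share of the gene counts, without TMM, the 10 genes took 0.06479% to 0.06871% in the sgSgf29 libraries. The sgCtrl libraries had 0.05345% to 0.05684%, without overlap.

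**Figure D1:**
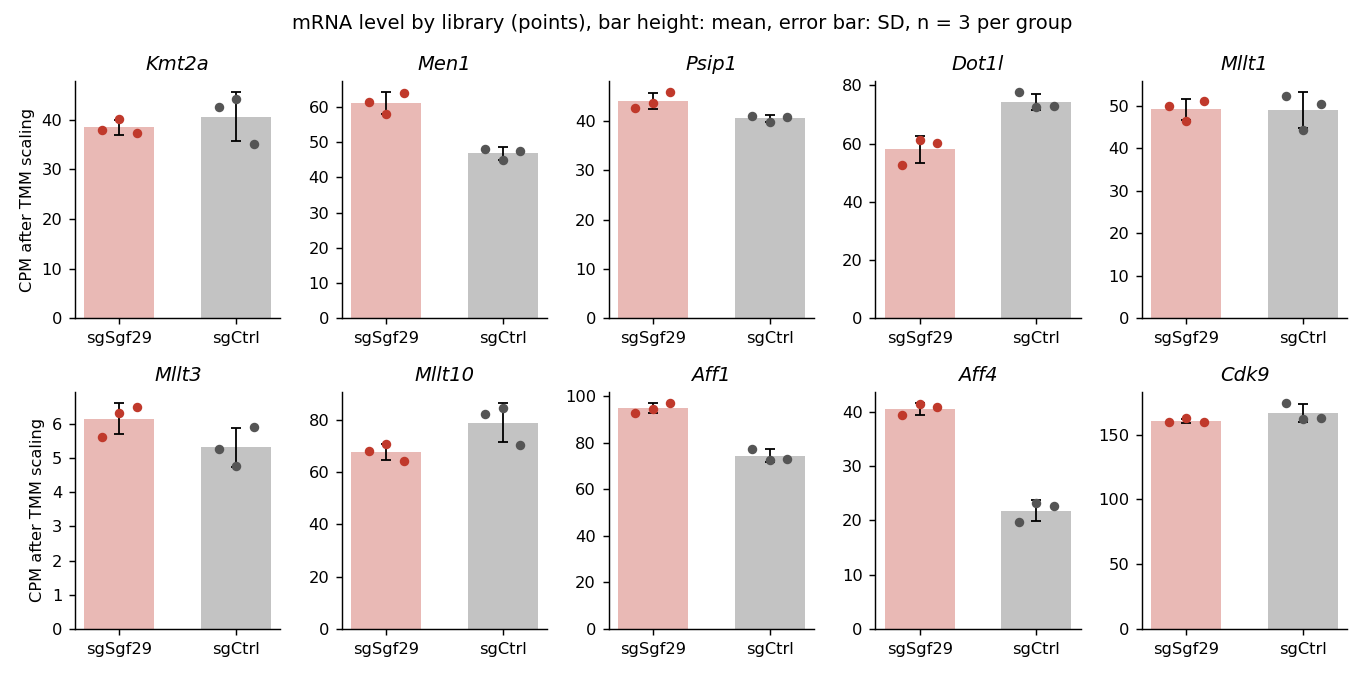
CPM of the 10 genes after TMM scaling, with sgSgf29 left of sgCtrl in each panel; bars give the group mean with its SD over 3 libraries, and each library has its own point. The sgSgf29 points lie above all sgCtrl points for Men1, Psip1, Aff1 and Aff4 and below them for Dot1l, and the groups overlap for the other 5 genes.

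The windows upstream of Aff4 and Men1, the genes with the largest rises, and of Dot1l, the gene with the largest fall, are shown because they lie at the genes whose mRNA moved most. They come from RefSeq on GRCm38.p6, which holds windows of 250 bases before and 50 after a transcript start for 9 of the 10 genes (Psip1 is not among them), and each was ended before the first annotated exon base. Capitals mark matches to any of the motifs searched on both strands, which were the GC box GGGCGG, the CCAAT box CCAAT, the ETS core CCGGAAG, the E-box CACGTG, the CRE TGACGTCA, the NRF1 palindrome and the TATA box TATAAA. The Aff4 stretch is chr11:53350517-53350639, the Men1 stretch chr19:6334729-6334978 and the Dot1l stretch chr10:80754953-80755100, all on the plus strand.
Aff4: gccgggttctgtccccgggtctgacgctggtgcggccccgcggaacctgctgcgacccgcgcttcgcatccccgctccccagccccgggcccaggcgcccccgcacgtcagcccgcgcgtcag
Men1: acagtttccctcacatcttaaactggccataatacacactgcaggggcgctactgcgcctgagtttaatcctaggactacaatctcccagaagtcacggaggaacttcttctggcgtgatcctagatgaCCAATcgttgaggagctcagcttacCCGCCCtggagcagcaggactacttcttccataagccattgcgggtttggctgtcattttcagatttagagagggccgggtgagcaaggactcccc
Dot1l: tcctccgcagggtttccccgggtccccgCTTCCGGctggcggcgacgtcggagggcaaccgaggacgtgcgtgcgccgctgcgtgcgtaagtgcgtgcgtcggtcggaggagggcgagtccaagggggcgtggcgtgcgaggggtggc

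The Aff4 stretch held 78.9% G and C with 18 CpG pairs in 123 bases, the Dot1l stretch 74.3% with 23 in 148 bases, and the Men1 stretch 52.0% with 8 in 250 bases. The Men1 stretch held 1 CCAAT box and 1 GC box, the Dot1l stretch 1 ETS core, and the Aff4 stretch none of these motifs. The whole Aff4 window of 300 bases, most of which lies beyond the stretch shown, held an E-box. A GC box was found in 35.7%, a CCAAT box in 37.4%, an ETS core in 8.86% and an E-box in 7.15% of all 32851 windows of 300 bases. In the window of the most upstream start, no motif was common to the 3 rising genes: Aff1 and Men1 held a GC box, Aff4 did not, and of the falling genes Dot1l held one and Mllt10 did not. The matches are descriptions of the letters and not of bound sites.

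Of the scaffold genes of the super elongation complex, Aff4 and Aff1 were higher in the sgSgf29 cells, whereas Aff2, at few counts, was lower (below). Aff4, whose product AFF4 holds P-TEFb and the ELL factors together, had 39.4, 41.5 and 40.9 CPM in the sgSgf29 libraries against 19.6, 23.2 and 22.6 CPM in the sgCtrl libraries. Each sgSgf29 library was above each sgCtrl library, as was the case for 37% of all genes tested. Its level was 1.86-fold that of the sgCtrl cells, or 0.90 ± 0.08 on the log2 scale (± standard error; edgeR quasi-likelihood, adjusted p = 8.9e-09). Aff1 encodes AF4, itself a frequent MLL fusion partner, and measured 92.8, 94.7 and 97.2 CPM in the sgSgf29 libraries against 77.6, 72.5 and 73.3 CPM in the sgCtrl libraries. The groups did not overlap, and the log2 difference was 0.35 ± 0.06 (edgeR, adjusted p = 5.1e-05). Both genes also passed under every scaling, filter and test tried and without any single library, at log2 fold changes of 0.83 to 1.13 for Aff4 and 0.33 to 0.58 for Aff1.

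The ratio of the raw counts of Aff1 and Aff4 within a library does not depend on how libraries are scaled. Aff1 had 2.36, 2.28 and 2.38 counts for each Aff4 count in the sgSgf29 libraries, against 3.95, 3.13 and 3.25 in the sgCtrl libraries. The mean log2 ratio was lower by 0.55 in the sgSgf29 cells (difference -0.55, exact permutation test, two-sided p = 0.10, adjusted p = 0.20 over 4 ratios), and 0.10 is the smallest p that 3 samples against 3 can give. The libraries did not overlap in this ratio.

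Cdk9, the kinase subunit of P-TEFb, was the most abundant of the 10 genes per length and did not pass the test. It measured 160.0, 162.6 and 159.7 CPM in the sgSgf29 libraries against 174.4, 161.9 and 162.8 CPM in the sgCtrl libraries, so that the groups overlapped. The log2 fold change was -0.05 with a 95% interval from -0.18 to 0.08 (adjusted p = 0.49 from edgeR), and with scaling by library size alone it passed at 0.18, where the median of all genes tested stood at 0.24 in place of 0.01. Cdk9 lay below that median under both scalings.

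The AF9 and ENL genes did not pass either, at very different depth. Mllt1, which encodes the YEATS-domain reader ENL, had 50.0, 46.3 and 51.2 CPM in the sgSgf29 libraries against 52.3, 44.3 and 50.4 CPM in the sgCtrl libraries. The sgSgf29 values lay within the range of the sgCtrl values, with a log2 fold change of 0.00 and a 95% interval from -0.16 to 0.16 (adjusted p = 0.97 from edgeR). Mllt3, the gene of the AF9 part of the fusion, was the least abundant of the 10 per length, with 5.63, 6.31 and 6.50 CPM in the sgSgf29 libraries against 5.27, 4.75 and 5.90 CPM in the sgCtrl libraries. These rest on 71 to 140 counts per library, and the log2 fold change of 0.21 had a wide 95% interval from -0.13 to 0.54 (adjusted p = 0.26 from edgeR). With scaling by library size alone, both genes passed, at 0.24 for Mllt1 and 0.44 for Mllt3. Mllt1 had 8.90, 7.34 and 7.88 counts for each Mllt3 count in the sgSgf29 libraries, against 9.92, 9.31 and 8.55 in the sgCtrl libraries, which overlapped (difference in mean log2 ratio -0.21, exact permutation test, two-sided p = 0.20, adjusted p = 0.27 over 4 ratios).

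Reads of the retroviral fusion that align to Kmt2a or Mllt3 would be counted there and cannot be told apart from those of the endogenous genes in a table of counts per gene.

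Of the DOT1L complex genes, Dot1l and Mllt10 were lower in the sgSgf29 cells, Dot1l more firmly, while Mllt1 and Mllt3 did not pass (above). Dot1l, the enzyme gene, had 52.8, 61.3 and 60.1 CPM in the sgSgf29 libraries against 77.6, 72.5 and 72.9 CPM in the sgCtrl libraries. Each sgSgf29 library was below each sgCtrl library, as was the case for 35.1% of all genes tested. The log2 difference was -0.35 ± 0.07 (edgeR, adjusted p = 0.00016). When libraries were scaled by their size alone, it was -0.12 and did not pass, under a scaling where the median of all genes stood at 0.24.

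Mllt10 encodes AF10, the cofactor that DOT1L needs for methylation beyond the first methyl group, and had 68.1, 70.7 and 64.3 CPM in the sgSgf29 libraries against 82.0, 84.3 and 70.3 CPM in the sgCtrl libraries. The groups overlapped narrowly, because the lowest sgCtrl library lay just under the highest sgSgf29 library. Its log2 difference of -0.22 ± 0.07 passed (edgeR, adjusted p = 0.013), but it no longer passed without sgSgf29 3 (-0.17), without sgCtrl 1 (-0.19), without sgCtrl 2 (-0.17) or with scaling by library size alone (0.01). Mllt10 shares 749 of its 5907 exon bases (12.7%) with Dnajc1 on the opposite strand, and the strand setting of the counting is not given in the sources used here. Dot1l had 0.775, 0.868 and 0.934 counts for each Mllt10 count in the sgSgf29 libraries and 0.946, 0.860 and 1.04 in the sgCtrl libraries, which overlapped (difference in mean log2 ratio -0.14, exact permutation test, two-sided p = 0.30, adjusted p = 0.30 over 4 ratios).

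The genes of MLL and its chromatin tethers divided. Men1, which encodes menin, had 61.4, 57.9 and 64.0 CPM in the sgSgf29 libraries against 47.9, 44.8 and 47.6 CPM in the sgCtrl libraries. The groups stood well apart, with a log2 difference of 0.38 ± 0.07 (edgeR, adjusted p = 5.4e-05), and the call held under every alternative tried, between 0.35 and 0.62. Psip1, the LEDGF gene, had 42.7, 43.6 and 45.8 CPM in the sgSgf29 libraries against 41.1, 39.7 and 40.9 CPM in the sgCtrl libraries. Its groups did not overlap but stood close, and the log2 fold change of 0.12 with a 95% interval from -0.03 to 0.27 did not pass (adjusted p = 0.14 from edgeR), although it did at 0.35 with scaling by library size alone. Psip1 shares 483 exon bases with Snapc3 on the opposite strand.

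Kmt2a had 37.9, 40.2 and 37.4 CPM in the sgSgf29 libraries against 42.6, 44.3 and 35.1 CPM in the sgCtrl libraries. The sgSgf29 values lay within the sgCtrl range, in which sgCtrl 3 was the low library. The log2 fold change was -0.07 with a 95% interval from -0.25 to 0.11 (adjusted p = 0.46 from edgeR), it passed without sgCtrl 3 (-0.17), and it was 0.16, not past the threshold, with scaling by library size alone. Within libraries, Kmt2a had 0.616, 0.695 and 0.585 counts for each Men1 count in the sgSgf29 cells against 0.889, 0.988 and 0.737 in the sgCtrl cells. The ratio was lower in each sgSgf29 library than in each sgCtrl library (difference in mean log2 ratio -0.46, exact permutation test, two-sided p = 0.10, the smallest possible, adjusted p = 0.20 over 4 ratios).

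**Figure D2:**
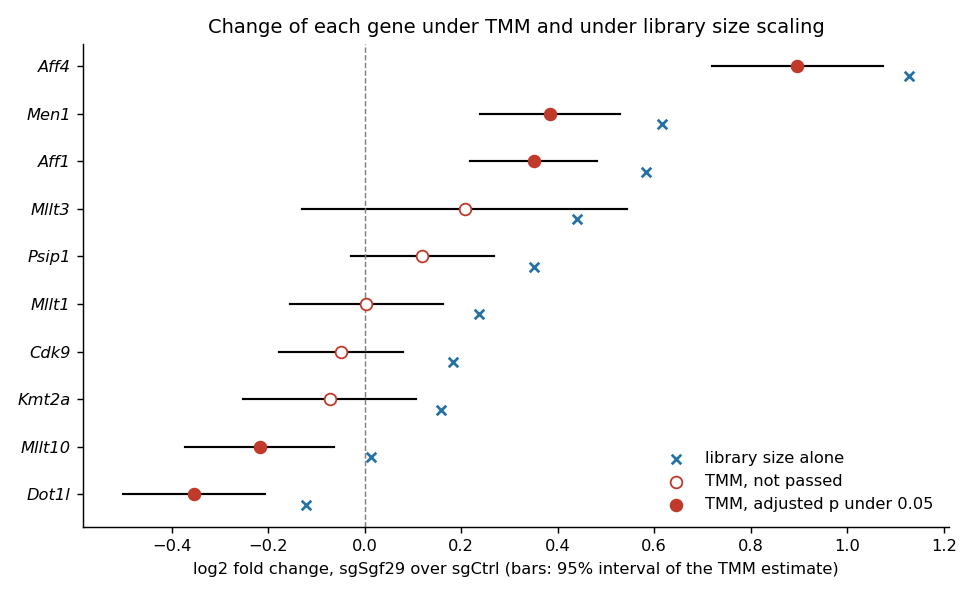
Log2 fold change of each gene, sgSgf29 over sgCtrl: circles are edgeR estimates after TMM scaling with their 95% intervals, filled where the adjusted p is under 0.05, and crosses are estimates with scaling by library size alone. Aff4, Men1 and Aff1 lie above 0 under both scalings, whereas the crosses of Mllt10, Kmt2a and Cdk9 lie on the other side of 0 from their circles.

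**Figure D3:**
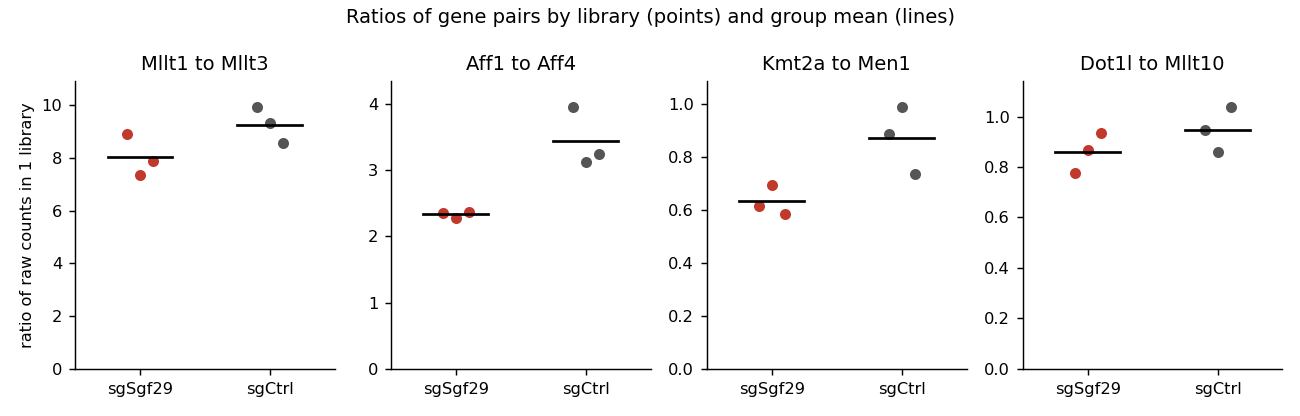
Ratio of the raw counts of gene pairs within each library, with points for single libraries, lines for group means and sgSgf29 left of sgCtrl. The groups are apart for Aff1 to Aff4 and for Kmt2a to Men1 and overlap for Mllt1 to Mllt3 and for Dot1l to Mllt10.

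Levels of different genes were compared as CPM per kilobase of exon. In the sgSgf29 cells the order was Cdk9 at 34.9 ± 0.346, Men1 at 15.9 ± 0.797, Mllt1 at 12.6 ± 0.649, Mllt10 at 11.5 ± 0.539, Aff1 at 10.03 ± 0.232, Psip1 at 8.66 ± 0.314, Dot1l at 6.67 ± 0.530, Aff4 at 3.02 ± 0.0803, Kmt2a at 2.31 ± 0.0898 and Mllt3 at 0.512 ± 0.0383 CPM per kilobase (SD, n = 3). In the sgCtrl cells Cdk9 was at 36.1 ± 1.51, Mllt10 at 13.4 ± 1.27, Mllt1 at 12.5 ± 1.07, Men1 at 12.2 ± 0.449, Dot1l at 8.54 ± 0.323, Psip1 at 7.98 ± 0.144, Aff1 at 7.87 ± 0.289, Kmt2a at 2.44 ± 0.293, Aff4 at 1.62 ± 0.141 and Mllt3 at 0.442 ± 0.0476 CPM per kilobase (SD, n = 3). Among neighbours in these orders, Mllt1 and Mllt10 overlapped in the sgSgf29 libraries, and Mllt10, Mllt1 and Men1 as well as Psip1 and Aff1 overlapped in the sgCtrl libraries. With these GENCODE lengths Aff4 stood above Kmt2a in the sgSgf29 cells and below it in the sgCtrl cells; with RefSeq lengths the means kept that order, but the sgCtrl libraries of both genes overlapped. Several other places depend on the exon length used. Mllt10 was placed 4 in the sgSgf29 cells and 2 in the sgCtrl cells with its GENCODE length of 5907 bases, and 7 in both with its RefSeq length of 12593 bases. With RefSeq lengths Psip1 moved to place 4 in both groups, above Aff1 and Dot1l, and Men1 to place 2 in the sgCtrl cells, above Mllt1. Cdk9 was highest and Mllt3 lowest with either length.

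The genes are spread over the mouse genome (RefSeq, GRCm38.p6). Kmt2a lies on chromosome 9 from 44803355 to 44881352, Men1 on chromosome 19 from 6334979 to 6340894 and Psip1 on chromosome 4 from 83455680 to 83486463. Dot1l lies on chromosome 10 from 80755101 to 80795461, Mllt10 on chromosome 2 from 18055160 to 18212390 and Cdk9 on the same chromosome from 32705782 to 32712784. Mllt1 lies on chromosome 17 from 56892608 to 56935509, Mllt3 on chromosome 4 from 87769925 to 88033407, Aff1 on chromosome 5 from 103692362 to 103855322 and Aff4 on chromosome 11 from 53350640 to 53421830. Genes called in the same direction did not share a chromosome. Exons of Kmt2a share 378 bases with an antisense RNA, and Cdk9 holds the microRNA genes Mir2861 and Mir3960 on its own strand.

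The enzyme complexes around MLL were lower more often than higher. Of 17 measured subunits of the MLL and COMPASS methyltransferases, 9 were lower (52.9%, against 34.4% of all genes tested) and 2 were higher, with a median log2 fold change of -0.21. The count of lower subunits fell to between 6 and 8 when any single library was left out. It was 6 without sgSgf29 1, where 3594 of 11289 genes tested were called lower. Dpy30 and Wdr5, core subunits shared by all these methyltransferases, had 60.1 ± 1.31 and 131.6 ± 3.38 CPM in the sgSgf29 cells against 102.7 ± 4.06 and 179.5 ± 5.39 CPM in the sgCtrl cells, at log2 fold changes of -0.77 (adjusted p = 1.2e-09) and -0.45 (adjusted p = 1.7e-06, both from edgeR). The core subunits Ash2l and Rbbp5, chosen after their values were seen, were also lower, at -0.26 and -0.28. Of the catalytic genes, Setd1a (-0.61), Kmt2d (-0.34) and Kmt2b (-0.26) were lower, while Kmt2c at 0.04 and Setd1b at 0.18 did not pass, Kmt2b, Kmt2c and Setd1b being chosen after their values were seen. Tasp1, the protease that cleaves MLL, was at -0.31 and was chosen likewise. The higher genes, Hcfc1 and Wdr82, chosen after their values were seen, did not hold: none was called without sgSgf29 3, sgCtrl 1 or sgCtrl 2 or by DESeq2, and 1 was called without sgSgf29 2. Library size scaling alone, which puts the median of all genes at 0.24, gave 3 lower and 8 higher subunits.

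The rest of the super elongation complex and P-TEFb moved in both directions. Of 12 measured genes, 5 were lower (41.7%, against 34.4% of all genes tested) and 2 were higher (16.7%, against 35.4%), with a median log2 fold change of -0.10. Eaf1, an ELL-associated factor, had 71.6 ± 1.53 CPM in the sgSgf29 cells against 109.8 ± 13.3 CPM in the sgCtrl cells, a log2 fold change of -0.62 (adjusted p = 4.0e-07 from edgeR). Mepce and Larp7, which encode parts of the 7SK particle in which P-TEFb is kept inactive, were lower at -0.46 and -0.24. Hexim1 at -0.05 and Hexim2 at -0.02, of the same list, did not pass (both chosen after their values were seen). Ell, an elongation factor and MLL fusion partner, was higher at 0.37, with 56.2 ± 3.21 CPM in the sgSgf29 cells against 43.7 ± 4.97 CPM in the sgCtrl cells. Of the cyclin subunits of P-TEFb, Ccnt2 was lower at -0.17, while Ccnt1 at -0.15 did not pass (both chosen after their values were seen). Aff2, a scaffold paralog chosen after its values were seen, was lower at -0.91 (adjusted p = 0.022 from edgeR). It rests on 14 to 39 counts per library. Aff3 and Ell3, a scaffold paralog and an ELL paralog, had 0 counts in all libraries. The count of lower genes was 3 without sgSgf29 1 or sgSgf29 3, and library size scaling alone, with its shift of all genes, gave 2 lower and 5 higher.

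Partners of AF9, menin and LEDGF moved both ways. Hdgfrp2 and Hdgf, which encode relatives of LEDGF, were lower at -0.47 and -0.38, and Bcor, a corepressor that binds AF9, was lower at -0.19 and was chosen after its values were seen. Cbx8, a Polycomb chromobox protein that binds AF9, was higher, with 38.5 ± 1.28 CPM in the sgSgf29 cells against 25.7 ± 2.45 CPM in the sgCtrl cells (log2 fold change 0.58, adjusted p = 4.0e-06 from edgeR). Jund, whose product binds menin, was higher at 0.27. That left 3 lower and 2 higher genes of 5 measured, where 34.4% of all genes tested were lower and 35.4% higher, with 1 higher without sgCtrl 2 and 1 lower with scaling by library size alone.

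A further list of known MLL fusion partners was measured beside Mllt1, Mllt3, Mllt10, Aff1 and Aff4. Like the other lists, it was chosen with earlier results of these data known. Of the partners described above and outside it, Aff1, Aff4 and Ell were higher, Mllt10 was lower, and Mllt1 and Mllt3 did not pass. Its 13 tested genes all passed as higher (100%, against 35.4% of all genes tested), none overlapped between the groups, and the median log2 fold change was 0.63, against 0.01 for all genes. Gas7, a cytoskeletal adaptor gene, had 259.7 ± 6.98 CPM in the sgSgf29 cells against 38.1 ± 1.31 CPM in the sgCtrl cells, a log2 fold change of 2.77 (adjusted p = 1.7e-17 from edgeR). Afdn, the AF6 gene of cell junctions, had 12.2 ± 1.63 CPM in the sgSgf29 cells against 2.85 ± 0.689 CPM in the sgCtrl cells, a log2 fold change of 2.08. Foxo4, a forkhead factor, and Picalm, a clathrin adaptor, were higher at 0.89 and 0.69. The acetyltransferase genes Crebbp and Ep300 were at 0.44 and 0.51, and Mllt6, a relative of Mllt10, was at 0.46, all 3 chosen after their values were seen. The smallest rise was that of Sept9, at 0.27, also chosen after its values were seen. The count was 13 without any single library, while Tet1, with counts near 0, was not tested. The mature myeloid genes moved in the same direction in the same libraries, and their part in this list was not tested.

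Genes that MLL fusions are known to activate had 5 lower (45.5%, against 34.4% of all genes tested), 5 higher (45.5%, against 35.4%) and 1 not passed of 11 measured, with a median log2 fold change of 0.14. Hoxa9, Myb and Hoxa10 were lower and Pbx3 was higher. Cdk6, a cell cycle kinase, had 234.5 ± 7.19 CPM in the sgSgf29 cells against 288.8 ± 12.9 CPM in the sgCtrl cells (log2 fold change -0.30), and the survival gene Bcl2 was at -0.77. The histone demethylase relative Jmjd1c and the transcription factor Runx2 were higher at 0.21 and 0.43. Cdk6, Bcl2, Jmjd1c and Runx2 were chosen after their values were seen. Eya1 and Zfp521 had 0 counts in all libraries, and Mef2c was at 0.157 ± 0.138 CPM in the sgSgf29 cells and 0.231 ± 0.155 CPM in the sgCtrl cells, too low to be tested.

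**Figure D4:**
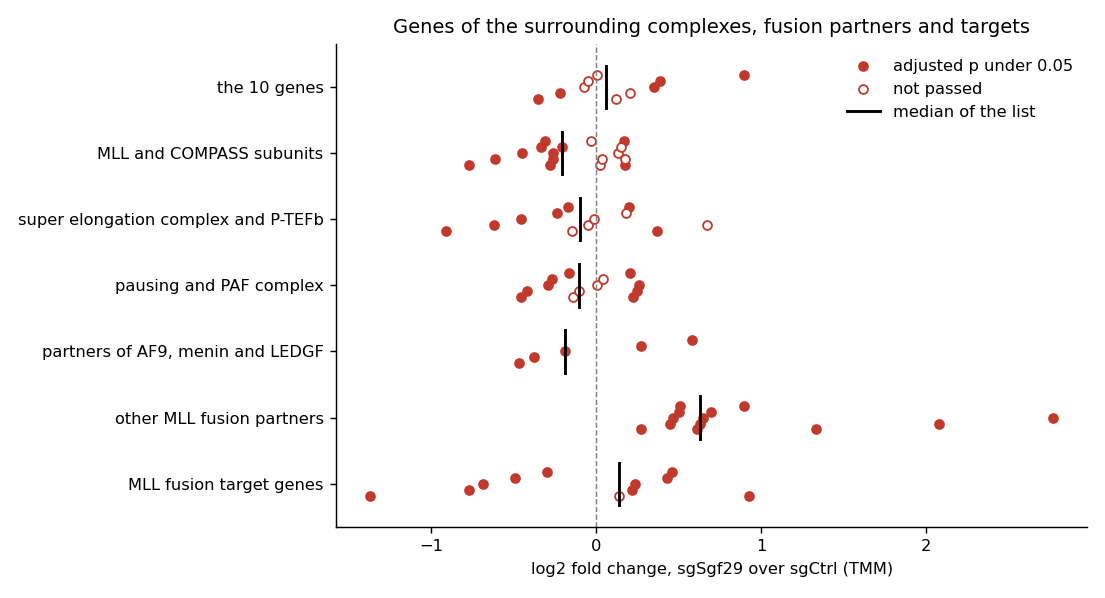
Log2 fold change after TMM scaling, sgSgf29 over sgCtrl, of the 10 genes and of 6 surrounding gene lists; each point is a gene, filled where its adjusted p is under 0.05, and black lines are list medians. All 13 points of the other fusion partners lie above 0, whereas each other list has points on both sides.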

How the data were processed

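The authors deposited 1 table of raw counts per gene for the 6 RNA-seq libraries. The study's methods give alignment to mm10 with STAR, counting with featureCounts and TMM scaling in edgeR. The submitters' processing notes name GRCm38, which is the same assembly as mm10. They also name STAR 2.6.0a, which is not the STAR version given in the study's methods. The table also holds 5 bookkeeping entries of the htseq-count kind, 25.9% to 31.4% of each library, which were left out. Annotation, strand setting and treatment of marked duplicates were not given in the sources used here. The chromatin samples of the series were not analysed here.

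Low genes were removed with filterByExpr (minimum count 10, minimum total 15), libraries were scaled by TMM (factors 0.917 to 1.10), and quasi-likelihood F-tests were run with edgeR 4.0.16 (R 4.3.3). P-values were adjusted over all 11169 genes by the Benjamini-Hochberg method and called under 0.05. Pseudocounts were edgeR's default. The biological coefficient of variation was 6.61%. The procedure was tested on simulated data in which few genes changed, in both directions. That does not test the scaling for data in which 69.8% of the genes tested are called. Exon lengths and overlaps came from GENCODE vM21. Alternatives used other scalings and filters, DESeq2 1.42.0, limma-voom (limma 3.58.1), a likelihood ratio test, a block, and each library left out.

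The members and lists were chosen with earlier results of these data known. The named genes were the 10 members, Sgf29 and, per list, at most 4 called genes taken in order of adjusted p; others are marked in the text. Single values of some list genes are not reported here. Replicate libraries differed by more than counting error, with chi-square values of 4.60 to 15.98 for each degree of freedom.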

Additional observations from a re-analysis of the deposited data

How the results depend on the processing

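Of 160 combinations of a gene and an alternative, 144 kept the direction and the side of the threshold. With the sign kept, 4 lost the call and 4 gained one. A further 8 changed sign, and none of these changes was for Men1, Aff1 or Aff4. Of these changes, 7 came from scaling by library size alone, under which the all-gene median stood at 0.24 in place of 0.01 on the log2 scale, with 2385 lower and 5575 higher genes over the whole table, so that changes are best read against that shift. Under it, 0 of the 10 genes were lower and 7 higher, and Kmt2a, Mllt10 and Cdk9 changed sign to 0.16, 0.0135 and 0.18. With that change of sign, Mllt10 also lost its call and Cdk9 gained one. MLL and COMPASS subunits then had 3 lower and 8 higher, the super elongation complex 2 lower and 5 higher, the pausing and PAF complex 2 lower, and the partners of AF9, menin and LEDGF 1 lower. MLL and COMPASS subunits had 4 higher with upper-quartile factors and 0 with DESeq2. Mllt1, whose estimate lies at 0, was at -0.0074 with RLE size factors, -0.0042 with TMM factors computed without ribosomal protein genes and -0.0069 with DESeq2.

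Leaving out 1 library at a time gave 1 to 3 lower and 3 higher of the 10 genes, and Mllt1 ranged between -0.0642 and 0.058. Lower MLL and COMPASS subunits ranged from 6 to 8, against 9 with all libraries, and higher ones from 0 to 2. Lower super elongation complex genes ranged from 3 to 5, higher pausing and PAF genes from 2 to 4, and higher partners of AF9, menin and LEDGF from 1 to 2. The cause of these shifts was not tested.

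The labels do not say whether the replicate numbers pair the samples. Deviations of same-numbered libraries from their group means correlated at 0.0051, 0.06 and 0.08 over genes. sgSgf29 2 and 3 correlated best with their own numbers but sgSgf29 1 with sgCtrl 2. With 3 libraries per group, these correlations cannot decide whether the samples are paired. A fit with the replicate number as a block called 3937 genes lower and 4059 higher, and changed no call of the 10 genes. The counting depth limits Mllt3 most, with at most 140 counts in a library.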

Other observations

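Of 13 measured genes of the complexes that pause RNA polymerase II or assist its elongation (pausing factors and the PAF complex), 5 were lower (38.5%) and 4 were higher (30.8%), near the 34.4% and 35.4% of all genes tested, with a median log2 fold change of -0.11. In the negative elongation factor, Nelfe had 64.6 ± 1.14 CPM in the sgSgf29 cells against 86.5 ± 2.12 CPM in the sgCtrl cells (log2 fold change -0.42, adjusted p = 5.1e-06 from edgeR), while Nelfb and Nelfa were higher at 0.24 and 0.20 and Nelfcd at 0.04 did not pass. In the PAF complex, which binds MLL, Wdr61, Paf1 and Rtf1 were lower at -0.46, -0.30 and -0.27, while Cdc73 and Leo1 were higher at 0.26 and 0.22. Nelfb, Nelfa, Nelfcd, Cdc73 and Leo1 were chosen after their values were seen. Without sgCtrl 1 or sgCtrl 2, 2 genes of the list were higher.

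Aff1 and Dot1l, on different chromosomes, had the same raw count in the library sgCtrl 1 (1221) and in sgCtrl 2 (1083), but 1467 and 1460 in sgCtrl 3. Among 975 genes with 1000 to 1500 counts in sgCtrl 1 and 900 to 1400 in sgCtrl 2, 4 of 474825 pairs of genes had equal counts in both libraries. The pair of Aff1 and Dot1l is itself among these 4 and was not chosen beforehand, so the count is no independent measure of its rarity. In the sgSgf29 libraries the counts were 1584, 2100 and 1989 for Aff1 and 901, 1361 and 1230 for Dot1l.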
